A study of Mus musculus with 6 samples.

Results

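The nuclear genes of oxidative phosphorylation were followed through their promoters in open chromatin of mouse nephron progenitor cells. The members were the promoter regions of an ATAC-seq count table whose listed gene had a name beginning with Ndufa, Ndufb, Ndufc, Ndufs, Ndufv, Uqcr, Sdh, Cox4, Cox5, Cox6, Cox7, Cox8 or Atp5. This rule found 53 regions of 53 genes, out of 43523 distinct regions and 14097 promoter regions. It used gene names alone and no measured value. Grouped by name prefix, which is not always membership of the complex, they were 27 regions of complex I, Ndufaf4 (an assembly factor of complex I), 1 of complex II, 3 of complex III, 11 of complex IV and 10 of complex V. The complex V group holds Atp5s and Atp5sl, now named Dmac2l and Dmac2 in RefSeq, which are not subunits of the synthase. The complex I group holds Ndufa4l2, a relative of Ndufa4, which is now counted as a subunit of complex IV.

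The cells came from kidneys of CD1 mice, an outbred strain, at the embryonic stage E14.5 or on the day of birth (P0), and no treatment, transgene or allele was named for either stage. For each library, up to 24 kidneys of 1 litter were pooled, cortical cells were released by a brief digestion, and progenitors were captured on beads with antibodies to the integrin Itga8. The sex of the pooled animals was not given, and 3 libraries per stage were labelled as biological replicates. In ATAC-seq the transposase Tn5 inserts adapters into accessible DNA, so the count of a region measures how open it was. Of 12 preset marker genes of nephron progenitors, 7 had a promoter region, Six2, Osr1, Eya1, Wt1, Sall1 and Gdnf among them, while Cited1, Itga8, Meox1, Hoxd11 and Crym had none listed under their names. None of the 8 immune or 6 erythroid markers had a promoter region listed under its name, against 2 of 8 of the stroma, 3 of 8 of the endothelium and 4 of 8 of the ureteric epithelium. Regions listed under other genes were not searched for these markers. Median levels per kb were 11.0 CPM for the progenitor regions, 15.6 for stroma, 8.66 for endothelium and 9.17 for ureteric epithelium. The purity of the pools was not tested.

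The respiratory chain sits in the inner mitochondrial membrane. Complexes I and II take electrons from NADH and succinate and pass them to ubiquinone, complex III passes them to cytochrome c, and complex IV passes them to oxygen. Complexes I, III and IV pump protons, and complex V, the ATP synthase, uses the gradient to make ATP. Most subunits are encoded in the nucleus, and their promoters are typically CpG-rich, lack a TATA box and are known as targets of the factors NRF1, GABP (an ETS factor) and YY1. Nephron progenitors are known to rely strongly on glycolysis, while the proximal tubule that descends from them depends on oxidative phosphorylation.

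Upstream sequence is shown for 9 members that stood at the ends of the measured ranges: those with the highest mean CPM of their complexes (Ndufb5, Ndufa11, Atp5e), those of the smallest p of theirs (Ndufa6, Uqcrfs1, Cox7b, Atp5j2), the assembly factor Ndufaf4, and the lowest mean CPM of complex IV (Cox6b1). Each line gives the 200 bases before the RefSeq start site, read along the gene, from build GRCm38.p6. Capitals mark exact matches on either strand to CGCATGCG (NRF1 core), TGCGCA (NRF1 short), CCGGAAG (ETS), CCAAT (the CCAAT box) and TGACGTCA (cyclic AMP element). A match is a match of letters and was not tested as a binding site.
Ndufb5 (chr3:32736863-32737062, plus strand): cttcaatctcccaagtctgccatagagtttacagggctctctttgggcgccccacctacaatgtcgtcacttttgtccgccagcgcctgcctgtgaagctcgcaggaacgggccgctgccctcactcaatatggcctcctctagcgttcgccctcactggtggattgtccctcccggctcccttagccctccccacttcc
Ndufa11 (chr17:56717562-56717761, plus strand): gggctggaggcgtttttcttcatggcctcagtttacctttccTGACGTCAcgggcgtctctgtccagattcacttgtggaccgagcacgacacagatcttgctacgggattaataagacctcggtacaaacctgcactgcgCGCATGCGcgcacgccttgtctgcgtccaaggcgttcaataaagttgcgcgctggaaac
Ndufa6 (chr15:82354292-82354491, minus strand): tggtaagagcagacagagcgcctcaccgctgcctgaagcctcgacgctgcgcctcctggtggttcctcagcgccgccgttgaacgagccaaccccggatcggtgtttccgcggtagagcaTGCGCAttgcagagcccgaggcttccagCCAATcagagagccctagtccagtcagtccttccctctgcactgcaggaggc
Ndufaf4 (chr4:24897883-24898082, plus strand): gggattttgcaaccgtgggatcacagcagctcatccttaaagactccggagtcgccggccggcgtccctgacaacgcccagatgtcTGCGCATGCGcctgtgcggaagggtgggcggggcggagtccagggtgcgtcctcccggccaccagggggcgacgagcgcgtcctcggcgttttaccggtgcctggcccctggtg
Uqcrfs1 (chr13:30545317-30545516, minus strand): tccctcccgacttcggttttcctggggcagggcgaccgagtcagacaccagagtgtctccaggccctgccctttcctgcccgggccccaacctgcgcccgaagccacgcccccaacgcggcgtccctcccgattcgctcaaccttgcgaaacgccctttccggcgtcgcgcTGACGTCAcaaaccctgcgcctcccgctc
Cox7b (chrX:106015500-106015699, plus strand): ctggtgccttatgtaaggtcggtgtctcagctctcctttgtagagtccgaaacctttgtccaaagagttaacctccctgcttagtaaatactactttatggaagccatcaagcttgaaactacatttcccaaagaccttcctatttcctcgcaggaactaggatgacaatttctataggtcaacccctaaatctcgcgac
Cox6b1 (chr7:30626115-30626314, minus strand): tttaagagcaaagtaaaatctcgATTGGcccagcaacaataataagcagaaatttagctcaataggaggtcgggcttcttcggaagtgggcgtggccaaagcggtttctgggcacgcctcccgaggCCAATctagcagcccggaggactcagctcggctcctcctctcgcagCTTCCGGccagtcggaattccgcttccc
Atp5e (chr2:174464102-174464301, minus strand): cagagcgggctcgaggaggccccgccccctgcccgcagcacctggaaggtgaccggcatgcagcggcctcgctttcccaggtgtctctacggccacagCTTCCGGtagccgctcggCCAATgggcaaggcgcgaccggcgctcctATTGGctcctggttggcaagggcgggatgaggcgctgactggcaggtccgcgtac
Atp5j2 (chr5:145191542-145191741, minus strand): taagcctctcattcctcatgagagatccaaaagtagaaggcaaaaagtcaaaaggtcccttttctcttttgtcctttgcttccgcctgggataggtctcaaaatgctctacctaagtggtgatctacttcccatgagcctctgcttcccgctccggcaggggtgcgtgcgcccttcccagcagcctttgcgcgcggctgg

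The upstream stretches differed in kind. Ndufa11 and Ndufaf4 held an NRF1 core, which in Ndufaf4 overlapped an NRF1 short match, while Cox6b1 and Atp5e each held an ETS match and a pair of CCAAT boxes. Ndufb5, Cox7b and Atp5j2 held none of the 5 motifs in these 200 bases. For Cox7b and Atp5j2, a CCAAT match lay in the part of the 300 base window that is not printed.

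A second set is shown for a motif that more of the members held than of other promoters, AAGATGGC, the core of the YY1 motif. It was found in 7 members, always on the gene's own strand. The lines give 30 bases around each match, which stands in capitals.
Ndufc1 (chr3:51408915-51408944, minus strand): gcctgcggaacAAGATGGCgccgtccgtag
Atp5j2 (chr5:145191500-145191529, minus strand): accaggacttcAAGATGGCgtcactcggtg
Ndufa9 (chr6:126849097-126849126, minus strand): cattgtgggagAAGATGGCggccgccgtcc
Ndufa3 (chr7:3617384-3617413, plus strand): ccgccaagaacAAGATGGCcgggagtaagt
Atp5sl (chr7:25619429-25619458, plus strand): cgttacctggcAAGATGGCggcgcccagag
Ndufs7 (chr10:80249462-80249491, plus strand): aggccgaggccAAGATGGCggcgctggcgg
Ndufs4 (chr13:114388045-114388074, minus strand): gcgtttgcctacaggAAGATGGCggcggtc

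In 6 of the 7 the match began after the start site, 23 bases after it in Ndufc1 and Ndufa3, 24 in Atp5j2, 25 in Ndufs7, 30 in Ndufa9 and 36 in Ndufs4. In Atp5sl it began 53 bases before the start. This placement, after the start on the gene's strand, held for 85.7% of the members' matches, for 177 of 367 matches (48.2%) in other open promoters and for 30.6% of 927 matches over all RefSeq windows.

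Between 6492996 and 12292629 counts fell in regions per library, the fewest in P0 replicate 2 and the most in P0 replicate 3. Promoter regions took 56.1% to 62.2% of the counts at E14.5 and 53.4% to 59.1% at P0, again lowest in P0 replicate 2. These shares include 1 promoter region on chromosome 1 without a gene name. It alone took 11.82%, 6.98% and 9.88% of the counts at E14.5 and 8.08%, 10.03% and 5.95% at P0. Promoter shares without it were not computed. Replicates are always listed in the order 1, 2 and 3. Of all counts, the members held 0.123%, 0.120% and 0.133% at E14.5 and 0.117%, 0.101% and 0.140% at P0. Below, levels are in CPM, counts scaled to a common library size by TMM (trimmed mean of M values), and a level per kb is CPM divided by the length of the region. Fewer accessible cells and less accessibility per cell cannot be told apart in such bulk libraries.

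The chain's promoters were open at a level typical of promoters. Their median over the 6 libraries was 11.9 CPM per kb, with quartiles of 10.1 and 19.5, against 12.8 (8.97 and 21.4) over all promoter regions and 8.89 over all regions. Members' regions were 1017 to 2464 bp long, with a median of 1566 bp against 1818 bp. Per kb, complexes I and V both had a median of 12.3 CPM, complex III 11.5 and complex IV 10.4, so the complexes differed far less than the genes within each of them.

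The highest member was Ndufb5, an accessory subunit of the membrane arm of complex I, at 37.0 CPM per kb, above 90.8% of promoter regions. Atp5e, the epsilon subunit in the rotor stalk of the ATP synthase, followed at 36.5 CPM per kb. The lowest was Cox4i1, the common isoform of a regulatory subunit of cytochrome c oxidase, at 5.80 CPM per kb, above 2.6% of promoter regions. Ndufb10, Cox6c, Ndufa7 and Cox5a also lay under the tenth percentile of promoters, at 6.18, 6.45, 6.56 and 7.08 CPM per kb. Within complex I, whose subunits assemble in fixed proportion, the range was 6.18 to 37.0 CPM per kb.

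**Figure D1:**
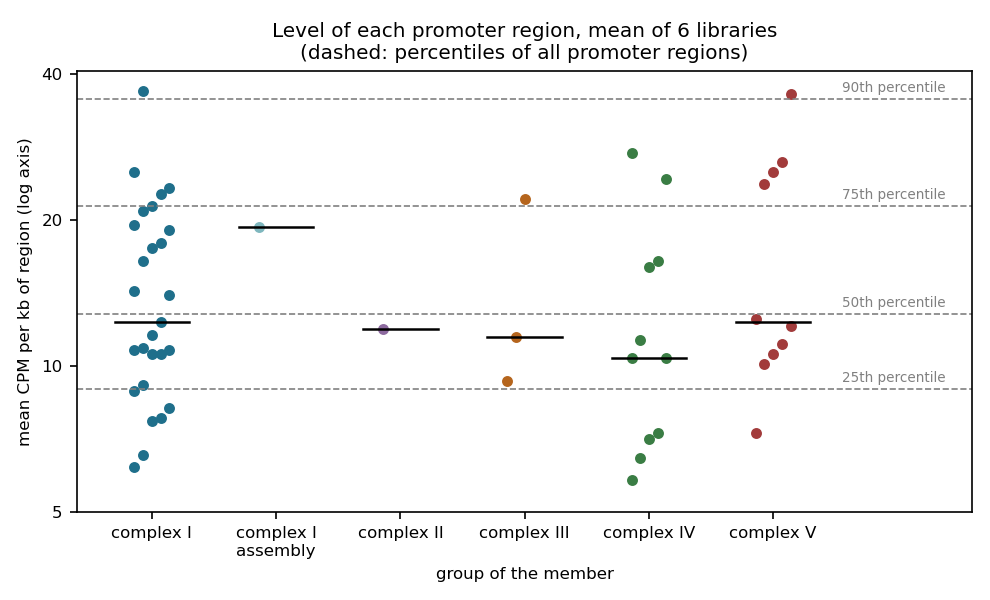
Mean CPM per kb of region over 6 libraries (log axis) for each of the 53 promoter regions, grouped by complex; black bars are group medians and dashed lines are percentiles of all promoter regions. The members' quartiles are 10.1 and 19.5 CPM per kb, with Ndufb5 at 37.0 and Atp5e at 36.5 near the 90th percentile and Cox4i1 lowest at 5.80.

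Between E14.5 and P0, no promoter of the chain passed the test. In edgeR's quasi-likelihood test, with Benjamini-Hochberg adjustment over all 43523 regions, 0 of 53 members had an adjusted p under 0.05, where 4.73% of all regions (2059) did, 2.94% lower and 1.79% higher at P0. Over promoter regions as a whole the share was 0.851%, or 120 of 14097, so a count of 0 in 53 is near the promoter background. With 1 library left out, that promoter count ran from 12 (without E14.5 replicate 3) to 196 (without P0 replicate 3). It was 222 with DESeq2. The balance of directions over all regions turned to 1692 higher and 1295 lower when E14.5 replicate 2 was left out, while without any 1 of the other libraries lower calls were more, from 56 higher and 283 lower without E14.5 replicate 3 to 864 and 1381 without P0 replicate 3. At an unadjusted p under 0.05 there were 2 members (3.77%), Cox7b and Atp5j2, against 18.7% of all regions and 8.73% of promoter regions. DESeq2 and limma-voom called 0 members as well, against 6.38% and 4.38% of all regions, with 1 and 0 members at an unadjusted p under 0.05. The unadjusted number hung on single libraries and on the scaling: it was 10 without P0 replicate 3, and 0 without E14.5 replicate 3, P0 replicate 1 or P0 replicate 2, with total-count scaling, or with TMM factors from promoters.

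The differences were small and mostly on the lower side at P0. The members' median log2 fold change, P0 over E14.5, was -0.15, with quartiles of -0.24 and 0.00 and a range from -0.65 (Cox7b) to 0.21 (Ndufb10). All promoter regions had a median of -0.10, with quartiles of -0.26 and 0.06, and all regions one of 0.01. Values were below 0 in 40 of 53 members (75.5%), in 66.0% of promoter regions and in 48.9% of all regions. That count was 31 of 53 under scaling to total counts and under TMM factors taken from promoters alone, a scaling that moved the median of all regions from 0.01 to 0.12 and the members' median to -0.06, against 0.00 for all promoters.

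The precision of these values bounds what could have been missed. Standard errors of the members' log2 fold changes ran from 0.18 to 0.31, with a median of 0.22. For 52 of 53 members (98.1%) the 95% interval lay wholly between a 2-fold decrease and a 2-fold increase, against 91.8% of promoter regions and 72.1% of all regions, and Cox7b was the exception. In simulated counts the test called 74 of 200 regions changed 2-fold. These were drawn from all regions above a minimum mean count, so the share is not a detection rate for these members. P0 libraries lay wholly on one side of the E14.5 libraries in 3 members (5.66%), against 24.2% of all regions and 16.7% of promoter regions. In each of the 3, Ndufs5, Ndufaf4 and Atp5j2, the P0 libraries were lower with TMM scaling. With total-count scaling 2 members (3.77%) did not overlap, against 22.9% of all regions: Ndufs5, lower at P0, and Ndufb7, higher at P0.

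**Figure D2:**
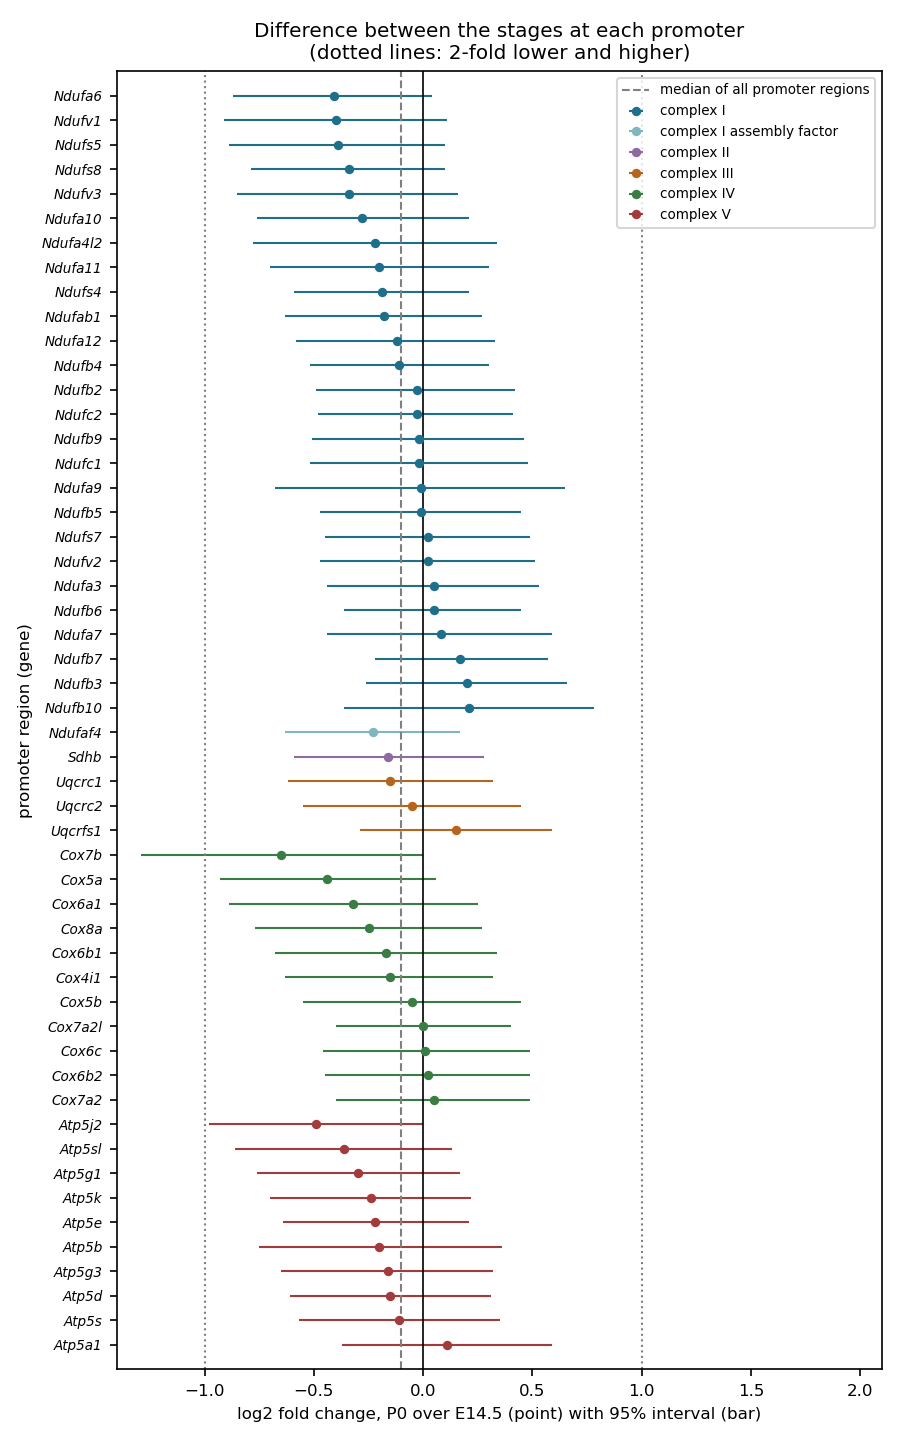
Log2 fold change of 52 of the 53 members, P0 over E14.5 (points), with its 95% interval from edgeR (bars), coloured by complex; the dashed line is the median of all promoter regions, -0.10, and dotted lines mark 2-fold changes. Points spread from -0.65 (Cox7b) to 0.21 (Ndufb10), and only the bar of Cox7b reaches beyond a dotted line.

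Complex I oxidises NADH in a peripheral arm and pumps protons in a membrane arm. Of its 27 member promoters, 0 passed the test and 0 had an unadjusted p under 0.05. Their median log2 fold change was -0.03, with 19 of 27 below 0. At Ndufv1, the subunit that binds FMN and NADH, accessibility was 28.4, 20.5 and 28.0 CPM at E14.5 and 18.8, 13.2 and 25.6 at P0 (log2 fold change -0.40, SE 0.24, edgeR adjusted p = 0.407). The stages overlapped there, since P0 replicate 3 exceeded E14.5 replicate 2.

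The neighbouring iron-sulfur subunit Ndufv2 stood at 37.4, 33.5 and 47.4 CPM at E14.5 and at 38.9, 28.6 and 51.7 at P0. Its log2 fold change was 0.02 (SE 0.23, edgeR adjusted p = 0.978), with both the lowest and the highest library at P0. Ndufs7 and Ndufs8, which carry iron-sulfur clusters on the path to the quinone, had log2 fold changes of 0.02 (SE 0.22) and -0.34 (SE 0.21). At Ndufs8 the libraries read 29.8, 27.6 and 32.7 CPM at E14.5 and 21.6, 19.1 and 29.8 at P0, and P0 replicate 3 again reached into the E14.5 range.

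Ndufs4, an accessory subunit whose loss in mice gives a model of Leigh syndrome, had tight values. They were 24.6, 22.7 and 24.8 CPM at E14.5 and 18.5, 23.8 and 21.0 at P0, a log2 fold change of -0.19 (SE 0.19, edgeR adjusted p = 0.653). Ndufs5 was 1 of the 3 members without overlap, at 14.9, 11.6 and 13.1 CPM against 11.2, 8.17 and 10.6. Its log2 fold change of -0.39 (SE 0.23) did not pass, with an edgeR adjusted p of 0.397.

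Among the accessory subunits, Ndufa6 had the smallest p of complex I. This small protein docks the acyl carrier protein, the product of Ndufab1, onto the complex. Its promoter on chromosome 15 (82353267 to 82355178) measured 29.3, 26.7 and 38.1 CPM at E14.5 and 24.1, 18.2 and 27.9 at P0. Means were 31.4 ± 5.95 and 23.4 ± 4.93 CPM (SD, n = 3 each), and the log2 fold change was -0.41 (SE 0.21, edgeR adjusted p = 0.327). P0 replicate 3 exceeded E14.5 replicate 2, so the stages overlapped.

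Ndufb5 (ENSMUSG00000027673) and Ndufa11 (ENSMUSG00000002379) had the highest mean CPM of complex I. The Ndufb5 region, on chromosome 3 from 32736280 to 32737845, also overlapped Mrpl47, which encodes a mitochondrial ribosomal protein. It measured 58.1, 53.7 and 62.7 CPM at E14.5 and 61.4, 42.1 and 69.4 at P0, with means of 58.2 ± 4.51 and 57.6 ± 14.0 (SD, n = 3 each). The difference between these means was far smaller than the spread among P0 libraries (log2 fold change -0.01, SE 0.22). Ndufa11, on chromosome 17 (56716296 to 56718072, overlapping Vmac), measured 53.5, 33.7 and 46.0 CPM and then 38.9, 28.3 and 48.2, with a log2 fold change of -0.20 (SE 0.23). Its stages overlapped broadly.

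Ndufa9, which binds NADPH near the junction of the arms, had the lowest mean CPM of complex I and the widest interval there. It measured 9.25, 6.13 and 11.8 CPM at E14.5 and 6.66, 12.6 and 7.89 at P0, a log2 fold change of -0.01 (SE 0.31). The library with its highest value, P0 replicate 2, was the one in which most members were lowest. Across the 19 members chosen neither by the rule for named genes nor for their role, Ndufs5 included, log2 fold changes ran from -0.39 to 0.21, with 12 below 0 and 7 above, and edgeR adjusted p-values from 0.397 to 0.986.

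The only member with the prefix Ndufaf was Ndufaf4 (ENSMUSG00000028261), which acts in building complex I and is not part of the finished enzyme. Its promoter on chromosome 4 (24896807 to 24899085) measured 47.9, 45.3 and 49.9 CPM at E14.5 and 44.9, 35.3 and 41.9 at P0. The stages did not overlap, but by 45.3 against 44.9 CPM at the nearest pair, and they overlapped with total-count scaling and with TMM factors from promoters. Means were 47.7 ± 2.30 and 40.7 ± 4.92 CPM (SD, n = 3 each), and the log2 fold change of -0.23 (SE 0.19) had an edgeR adjusted p of 0.573.

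Complex II, which is also the succinate dehydrogenase of the citric acid cycle, was represented by its iron-sulfur subunit Sdhb. Its promoter measured 20.5, 20.0 and 22.2 CPM at E14.5 and 21.6, 14.53 and 19.9 at P0 (log2 fold change -0.16, SE 0.20, edgeR adjusted p = 0.747). P0 replicate 2 stood below the other 5 libraries, and P0 replicate 1 lay within the E14.5 range.

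For complex III, 0 of 3 promoters passed, with a median log2 fold change of -0.05. Uqcrc1 and Uqcrc2 encode its large core proteins. Uqcrc2 measured 47.7, 45.5 and 55.2 CPM at E14.5 and 48.3, 31.8 and 62.8 at P0, a log2 fold change of -0.05 (SE 0.23). Uqcrc1 measured 20.0, 16.6 and 17.3 CPM and then 18.8, 11.7 and 17.7, a log2 fold change of -0.15 (SE 0.22). At both genes P0 replicate 2 was the lowest library. Uqcrfs1, the Rieske iron-sulfur protein, was among the 13 members with a value above 0, at 20.0, 20.5 and 24.2 CPM against 21.6, 20.3 and 29.6 (log2 fold change 0.15, SE 0.20, edgeR adjusted p = 0.758).

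Complex IV hands electrons to oxygen, and its nuclear subunits surround a catalytic core that mitochondrial DNA encodes. None of its 11 promoters passed, the median log2 fold change was -0.15, and 8 of 11 values were below 0. The largest difference of any member was at Cox7b (ENSMUSG00000031231), a small subunit and the 1 member on the X chromosome (106015116 to 106016343). It measured 11.7, 10.8 and 24.4 CPM at E14.5 and 8.12, 9.69 and 11.9 at P0. E14.5 replicate 3 stood alone at 24.4 CPM, with at most 11.9 in any other library, and the other 5 libraries overlapped between the stages.

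The Cox7b means were 15.6 ± 7.61 and 9.91 ± 1.91 CPM (SD, n = 3 each), and the log2 fold change was -0.65 (SE 0.30, edgeR adjusted p = 0.267). Without E14.5 replicate 3 the log2 fold change was -0.18, with an adjusted p of 0.875. Over the alternatives its adjusted p ran from 0.108 to 0.875, and that 0.108 was the lowest of any member in any setting tried.

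Cox5a, a matrix-side subunit, came next in this complex, at 18.7, 13.9 and 14.7 CPM at E14.5 and 11.0, 9.53 and 14.1 at P0. Its log2 fold change was -0.44 (SE 0.23, edgeR adjusted p = 0.338), and P0 replicate 3 lay just above E14.5 replicate 2. Cox5b, which binds zinc, measured 18.5, 11.0 and 14.0 CPM and then 12.7, 13.3 and 15.8, a log2 fold change of -0.05 (SE 0.24). Cox4i1, with the lowest level per kb, measured 13.0, 13.8 and 14.25 CPM and then 10.6, 11.3 and 14.8, a log2 fold change of -0.15 (SE 0.22). The region listed for Cox4i1 also overlapped Emc8 and Gm27021, so its count cannot be assigned to 1 of these genes.

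Several subunits of complex IV exist as tissue isoforms. Cox6b1, the somatic form, had the lowest mean CPM of the complex, at 9.02, 10.2 and 12.4 CPM at E14.5 and 8.95, 8.93 and 10.1 at P0. Cox6b2, known as the testis form, stood higher in these progenitors, at 23.8, 29.9 and 39.6 CPM and then 35.4, 25.1 and 33.5. Per kb the levels were 7.26 for Cox6b1 and 16.0 for Cox6b2, whose region overlapped Fam71e2 as well. Neither differed between stages beyond its spread, with log2 fold changes of -0.17 (SE 0.24) and 0.02 (SE 0.22).

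The ubiquitous isoforms Cox6a1, Cox7a2 and Cox8a all had open promoters. For Cox7a2 they measured 35.1, 45.8 and 49.2 CPM at E14.5 and 47.9, 35.4 and 50.8 at P0 (log2 fold change 0.05, SE 0.21). Cox8a measured 25.4, 25.3 and 30.4 CPM and then 22.7, 14.23 and 30.5 (log2 fold change -0.25, SE 0.24, and -0.02 with P0 replicate 2 left out). Cox6a1 measured 15.8, 11.6 and 9.11 CPM and then 9.89, 7.26 and 11.8 (log2 fold change -0.32, SE 0.27). In all of these genes the P0 and E14.5 libraries overlapped. The start sites of Cox7a1 and Cox8b, the heart and muscle forms, lay in none of the 43523 regions.

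Cox7a2l, which helps to join complexes III and IV into supercomplexes, was the most even member. It measured 28.9, 23.6 and 25.6 CPM at E14.5 and 23.5, 29.8 and 24.9 at P0, a fold of 1.00 with an edgeR adjusted p of 1.00. Ndufa4l2, a relative of Ndufa4 that is known to be induced in hypoxia, measured 17.7, 11.2 and 20.4 CPM and then 10.2, 15.0 and 17.0. Its log2 fold change was -0.22 (SE 0.26), within the spread of either stage.

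Of the complexes with more than 1 member, complex V had the lowest median, -0.21, with 9 of 10 values below 0 and 0 of 10 past the test. Without Atp5s and Atp5sl the median of the other 8 was -0.21, with 7 below 0. The smallest p of all members was at Atp5j2 (ENSMUSG00000038690), the f subunit in the membrane part of the synthase, on chromosome 5 (145190423 to 145191973). It measured 16.5, 17.5 and 23.8 CPM at E14.5 and 14.16, 10.6 and 16.0 at P0. The stages did not overlap, by 16.5 against 16.0 CPM at the nearest pair, and they overlapped with total-count scaling. Means were 19.3 ± 3.97 and 13.6 ± 2.76 CPM (SD, n = 3 each), and the log2 fold change was -0.49 (SE 0.23, edgeR adjusted p = 0.262). Over the alternatives the adjusted p ran from 0.148 to 0.704.

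The catalytic head of the synthase is built from the alpha and beta subunits. Atp5b, the beta subunit, measured 57.9, 25.7 and 32.0 CPM at E14.5 and 30.0, 36.0 and 34.7 at P0. E14.5 replicate 1 stood apart from the other 5 libraries, and without it the log2 fold change turned from -0.20 (SE 0.26) to 0.22. Atp5a1, the alpha subunit, had a log2 fold change of 0.11 (SE 0.23) and was the only member of complex V above 0. The region listed for Atp5a1 also overlapped Haus1.

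In the central stalk, Atp5e measured 53.5, 39.6 and 43.8 CPM at E14.5 and 42.3, 33.6 and 41.7 at P0, with a log2 fold change of -0.22 (SE 0.20). Atp5d, the delta subunit beside it, measured 24.8, 20.8 and 24.1 CPM and then 22.3, 14.8 and 24.9, with a log2 fold change of -0.15 (SE 0.22). Atp5g1 and Atp5g3 encode the same mature protein of the rotor ring from separate genes. Their promoters differed in level, at 23.8 and 7.27 CPM per kb. Atp5g1 measured 36.8, 35.6 and 33.3 CPM and then 29.4, 19.8 and 36.3, and Atp5g3 measured 11.6, 11.5 and 14.1 CPM and then 9.27, 11.5 and 12.4.

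Neither ring gene passed, with log2 fold changes of -0.30 (SE 0.22) and -0.16 (SE 0.23). Both Atp5s and Atp5sl carry the prefix but are named Dmac2l and Dmac2 in RefSeq and are not subunits of the synthase under those names. Atp5s measured 42.5, 39.1 and 34.7 CPM at E14.5 and 37.9, 25.7 and 43.5 at P0, a log2 fold change of -0.11 (SE 0.22).

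Libraries of the same stage differed in a way that most members shared. P0 replicate 2 was the lowest of the 6 libraries for 29 of 53 members, and P0 replicate 3 and E14.5 replicate 3 were the highest for 18 and 17. The members' median deviation from their own 6-library mean, in log2 CPM, was 0.07, -0.04 and 0.17 in the E14.5 libraries and -0.09, -0.32 and 0.17 in the P0 libraries. Over all promoter regions the same medians were 0.08, 0.00, 0.10, -0.05, -0.21 and 0.11, so the order of the libraries was nearly the same there. The library with the lowest median, P0 replicate 2, had the fewest counts and the smallest promoter share, and the part of depth in this pattern was not tested.

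**Figure D3:**
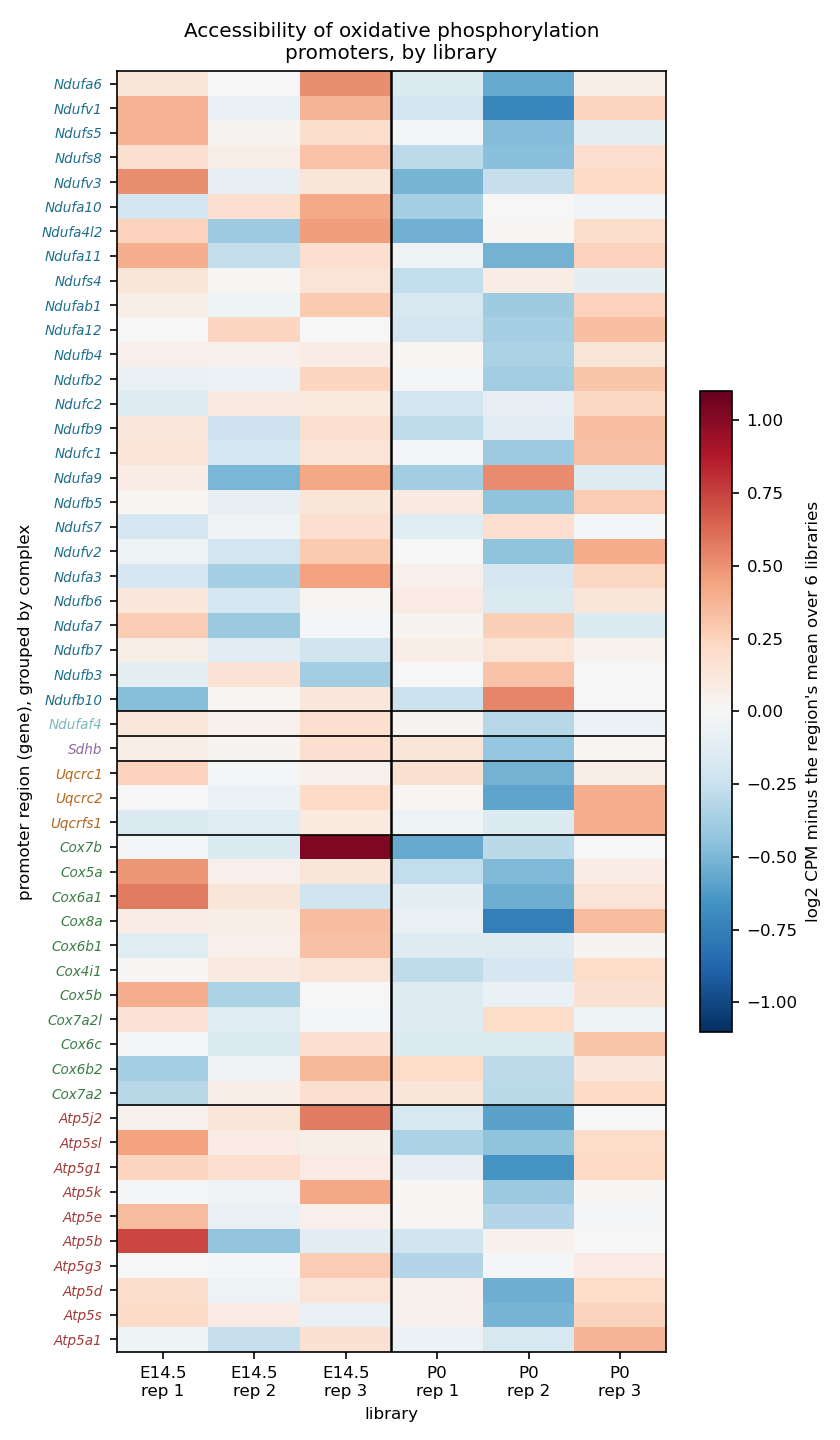
Log2 CPM of each member in each library, minus its mean over the 6 libraries; rows are 52 of the 53 promoters grouped by complex and ordered by fold change, and the vertical line parts the stages. P0 replicate 2 is mostly blue, being lowest for 29 of 53 members, P0 replicate 3 and E14.5 replicate 3 are mostly red, and single dark cells mark Cox7b in E14.5 replicate 3 and Atp5b in E14.5 replicate 1.

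Summed over the 53 promoters, accessibility was 1303, 1161 and 1372 CPM at E14.5 and 1151, 992 and 1354 CPM at P0. The means were 1279 ± 107 and 1166 ± 181 CPM (SD, n = 3 each), a ratio of 0.911, and the difference was smaller than the SD among P0 libraries. The sum over all promoter regions had a ratio of 0.903. That sum includes the chromosome 1 region with the most counts, at a mean of 88513 CPM, and no ratio was computed without it. The members' difference of -113 CPM shrank to -26.4 when P0 replicate 2 was left out and to -66.7 when E14.5 replicate 3 was. Leaving out E14.5 replicate 2 gave -172, and leaving out P0 replicate 3 gave -207. By group the ratios were 0.925 for complex I, 0.853 for Ndufaf4, 0.893 for complex II, 0.983 for complex III, 0.917 for complex IV and 0.861 for complex V. The ratio of complex III turned above 1 with total-count scaling (1.03) and with TMM factors from promoters (1.04), and its difference of -1.48 CPM became 10.4, 2.37 and -12.8 when P0 replicate 2, E14.5 replicate 3 and P0 replicate 3 in turn were left out. The other differences kept their sign when a library was left out, with the value nearest 0 without P0 replicate 2 and the farthest without P0 replicate 3 for complex I (-10.2 to -95.7, against -47.3 with all libraries), complex IV (-4.51 to -33.7, against -18.6) and complex V (-17.6 to -54.7, against -36.6). For complex II they ran from -0.171 to -3.68, against -2.24, and for Ndufaf4 from -4.29 to -9.10, against -7.01, in both with P0 replicate 2 and then P0 replicate 1 left out. With TMM factors taken from promoter regions alone, the members' sums became 1238, 1161 and 1289 at E14.5 and 1189, 1155 and 1260 at P0. Their ratio was 0.977, against 0.976 over all promoter regions, the chromosome 1 region included. The P0 libraries then spanned 1155 to 1260 CPM in place of 992 to 1354.

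**Figure D4:**
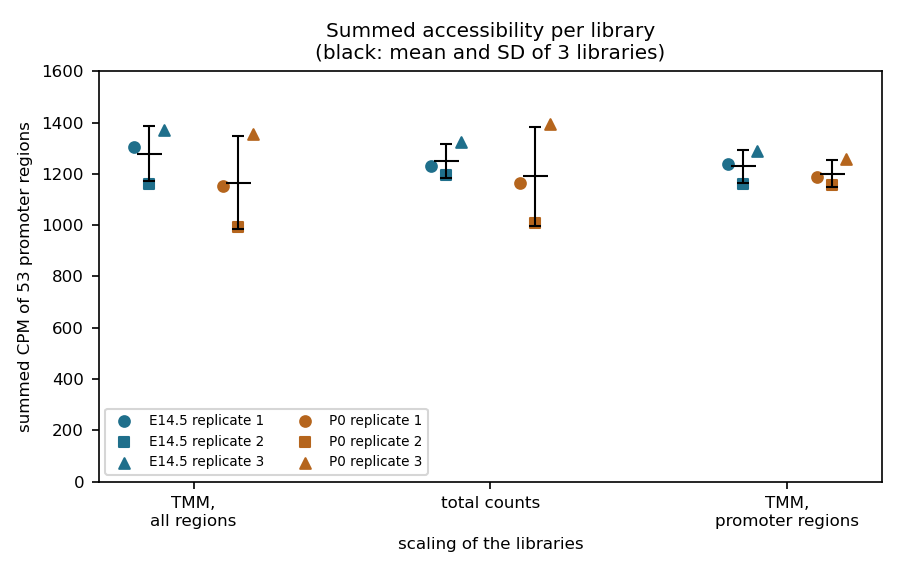
Summed CPM of the 53 promoter regions in each library under 3 scalings of library size; marker shapes are replicates, colours are stages, and black bars give the mean and SD of 3 libraries. The stages overlap under each scaling, and the P0 libraries, 992 to 1354 CPM with TMM over all regions, draw together to 1155 to 1260 CPM with factors from promoters.

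Some of these promoter regions overlapped other genes. Of the 53 member regions, 11 (20.8%) overlapped the bodies of 2 or more protein-coding genes in RefSeq, against 11.8% of all promoter regions. The latter include promoters of non-coding and unnamed genes, so the shares are not fully alike. An overlap with a gene body does not show a shared start site, and the count of such a region cannot be assigned to 1 gene. The table named at most 1 gene per promoter, so a chain gene listed under another name was not found by the rule. RefSeq held 100 protein-coding genes with the prefixes, of which 51 had a member region and 49 did not. Start sites of 30 of those 49 lay inside 31 regions listed under another name, which for 4 genes (Ndufaf5, Ndufaf7, Ndufaf8 and Sdhaf3) was an older symbol of the same gene, and 8 lay in no region, namely Atp5l, Cox7a1, Cox7b2, Cox8b, Ndufaf1, Ndufb4b, Ndufb8 and Uqcr11. The other 11, Ndufs1, Sdhc, Uqcrb and Uqcrq among them, had no window in the RefSeq promoter table and were not searched for.

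In those 31 regions, 0 were called by edgeR and 0 had an unadjusted p under 0.05. Their median log2 fold change was -0.11, with a range from -0.47 to 0.21 and 23 of 31 below 0. They were somewhat more open than the members, with a median of 17.9 CPM per kb. The most open was that of Cox7c, listed under the small nucleolar RNA snoZ39, at 74.7 CPM per kb, where means were 75.1 CPM at E14.5 and 78.4 at P0. Atp5j lay in the region listed under Gabpa, the gene of a GABP subunit, at 34.8 CPM per kb (log2 fold change 0.20, SE 0.25). Sdha, the flavoprotein of complex II, lay in a region listed under Ccdc127 (log2 fold change -0.07, SE 0.21). The start of Atp5g2 lay in overlapping regions of chromosome 15, 102670239 to 102674041 and 102670239 to 102674046. Their log2 fold changes were -0.10 and -0.11, so this locus enters the 31 regions more than 1 time. These genes were chosen for mention after their values were seen.

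Of the 53 members, 46 had a RefSeq promoter window of 250 bases before to 50 after the start, and each such start lay inside its region. No window was matched for the other 7, Uqcrc2, Cox4i1, Ndufa4l2, Cox6c, Ndufb9 and Atp5a1 among them. Shares are given beside those of 8227 other open promoters and of all 32851 RefSeq windows, all searched on both strands. The YY1 core AAGATGGC was in 15.2% of member windows, 4.29% of other open promoters and 2.75% of all windows. The NRF1 core CGCATGCG was in 10.9%, 3.88% and 1.87%, in Atp5k, Cox6a1, Ndufa11, Ndufaf4 and Uqcrc1. NRF1 short matches (TGCGCA) were in 21.7% of member windows, in 1194 of the 8227 and in 7.76% of all, and the 2 NRF1 motifs overlap where the letters TGCGCATGCG occur.

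The ETS motif CCGGAAG was in 19.6% of member windows, close to the 17.0% of other open promoters. At least 1 of the NRF1 short, ETS and YY1 motifs was in 23 of 46 member windows, against 31.3% of other open promoters and 17.3% of all windows. The cyclic AMP element TGACGTCA was in 8.70%, 3.29% and 1.79%. By contrast the GC box GGGCGG was in 41.3% of member windows and in 69.1% of other open promoters. CCAAT was in 41.3% and 39.6%, and TATAAA in 8.70% and 6.15%. These shares rest on 46 windows and were not tested.

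**Figure D5:**
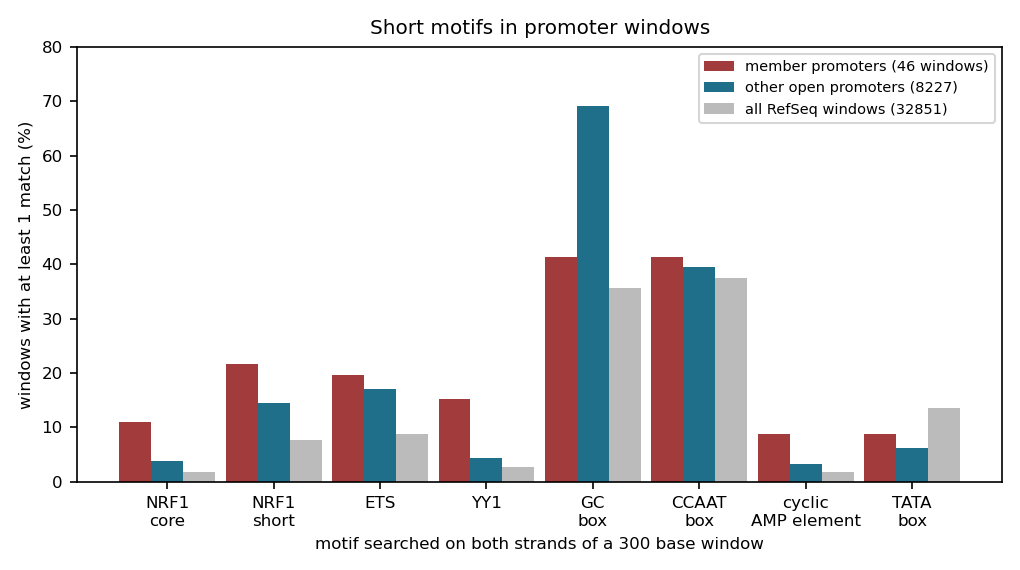
Share of promoter windows with at least 1 match to each of 8 short motifs, for 46 members, 8227 other open promoters and all 32851 RefSeq windows. Member bars are higher for the YY1 core (15.2% against 4.29% of other open promoters) and the NRF1 core (10.9% against 3.88%), and lower for the GC box (41.3% against 69.1%).

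Base composition was similar to that of other open promoters, with a median GC content of 58.8% against 62.0% and a ratio of observed to expected CpG of 0.798 against 0.771, where all windows had 52.7% and 0.384. Levels with and without a motif were set side by side as medians, with no test. The 19 members with a GC box had a median of 19.4 CPM per kb and the 27 without had 10.8, while other open promoters had 14.7 with and 12.8 without. Members with a YY1 core had a median of 9.15 CPM per kb against 14.0 without, where other open promoters had 13.5 and 14.1. The median log2 fold change was -0.20 with CCAAT and -0.05 without, where other open promoters had -0.16 and -0.11. It was 0.06 in the 4 members with a TATA box and -0.17 without, against -0.09 and -0.13 in other open promoters. The 7 members with a YY1 core had -0.02 and those without -0.16, against -0.17 and -0.12. With the NRF1 core (5 members) it was -0.23 and without -0.12, against -0.17 and -0.13, and with ETS (9 members) -0.22 and without -0.12, against -0.15 and -0.12. The 10 members with NRF1 short had -0.13 and those without -0.16, against -0.15 and -0.12. For the cyclic AMP element (4 members) the values were -0.12 and -0.15, against -0.18 and -0.13. For the GC box they were -0.16 and -0.15, against -0.14 and -0.10.

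The motif matches that the deposited table itself lists covered other factors. At least 1 was listed for 56.6% of members, against 69.4% of promoter regions. Forkhead motifs were listed in 18.9% against 15.3%, E2F motifs in 26.4% against 33.6%, Maz in 26.4% against 38.1% and Sall in 15.1% against 26.8%. No member had a listed Meis, Pax, Jun or Bach match, where 2.74%, 3.28% and 3.22% of promoter regions had a Meis, a Pax, and a Jun or Bach match.

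Genes that feed, build or regulate the chain gave the same count of calls. In 55 promoter regions of 51 listed genes, 0 passed edgeR's test, 2 had an unadjusted p under 0.05, the median log2 fold change was -0.11 and 40 were below 0. Among regulators, Ppargc1a, a coactivator of mitochondrial biogenesis, had 2 promoter regions with log2 fold changes of 0.61 (SE 0.28, edgeR adjusted p = 0.254) and 0.32 (SE 0.19). Nrf1, Gabpa and Tfam, which drive transcription of nuclear chain genes and of mitochondrial DNA, had log2 fold changes of -0.01, 0.20 and 0.03. Esrra and Yy1 had -0.53 (SE 0.27) and -0.49 (SE 0.24), with edgeR adjusted p-values of 0.301 and 0.286. E14.5 replicate 1 was the highest library at both, and the stages overlapped. Esrra measured 61.1, 32.8 and 36.2 CPM at E14.5 and 22.1, 27.5 and 39.8 at P0. Yy1 measured 75.2, 44.2 and 57.1 CPM and then 37.3, 34.5 and 53.4.

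In the citric acid cycle 0 of 15 regions passed, with a median of -0.15 and 12 below 0. Fh1, fumarase, had the smallest p, with means of 152 CPM at E14.5 and 109 at P0 (log2 fold change -0.47, SE 0.21, edgeR adjusted p = 0.232). For further assembly factors 0 of 17 regions passed and the median was -0.06. Adenine nucleotide carriers, phosphate carrier and porins gave 0 of 6, with a median of -0.12. Of 6 further chain genes, 3 had a region, Cyc1, Etfa and Etfb, and 0 passed.

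Promoters of other housekeeping genes for large complexes gave counts of calls near those of the chain. Cytosolic ribosomal protein promoters gave 0 calls in 45 regions with edgeR, DESeq2 or limma-voom, a median log2 fold change of -0.11 and 33 values below 0, with 2 at an unadjusted p under 0.05 in edgeR. Mitochondrial ribosomal protein promoters gave 0 calls in 57 regions with each tool, a median of -0.13 and 43 below 0, also with 2. The members' median of -0.15 lay beside these. P0 libraries lay wholly on one side of the E14.5 libraries in 4 cytosolic (8.89%) and 8 mitochondrial (14.0%) ribosomal protein regions. That was against 3 members (5.66%) and 16.7% of all promoter regions. No difference between the sets was tested.

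In the authors' deposited table all 53 members were classed as stable, where 5.34% of all regions there were not, and their lowest adjusted p there was 0.386. Their median log2 fold change in the authors' deposited table was -0.09, with 37 of 53 below 0, against -0.08 for all promoter regions.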

How the data were processed

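ATAC-seq libraries of 6 pools of nephron progenitors, 3 per stage, were compared. Per the file headers, the deposited values were whole-number counts of each region in each library. It also held the authors' log2 fold change, their score (the t statistic) and their p-value and adjusted p-value. The submitters' processing notes name build mm10. The aligner, peak caller, duplicate removal and Tn5 shift are not given in the sources used here, and their effect was not assessed.

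Of 45489 rows, 1966 repeated a region, which left 43523. Count columns were matched to libraries by title, and 0 were left unmatched. Gene names came from 28296 identifier and name pairs in the table, with 0 conflicts. No region lay on the mitochondrial chromosome. Promoter sequences and gene neighbours came from RefSeq, GRCm38.p6, matched by symbol.

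Counts were tested with edgeR 4.0.16 (TMM, filterByExpr, which removed 0 regions, quasi-likelihood F test, stage as the only term), with Benjamini-Hochberg adjustment over all 43523 regions at a threshold of 0.05. The biological coefficient of variation was 0.211. Log2 CPM used a prior count of 1. On simulated counts for the 43523 regions, 200 of them changed 2-fold, 74 of the changed regions and 3 unchanged ones were called. DESeq2 1.42.0 and limma-voom (limma 3.58.1) in R 4.3.3 were alternatives, as were other scalings, filters, autosomes, a replicate block and leaving out each library. Summaries used Python 3.11.15 and pandas 2.3.3.

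The members, gene lists and tests were chosen with earlier results of these data known. Genes were named by a rule: in each complex the 2 with the highest mean CPM, the lowest, and the smallest p, plus isoform pairs and members on the X chromosome. It named 23, and 11 more (Ndufs4, Ndufs7, Ndufs8, Ndufv1, Ndufv2, Cox5a, Cox5b, Atp5a1, Atp5b and Atp5d among them) were chosen for their role after values were seen, as were Ndufs5, the other members named by value and the genes named from the further lists. Values of 1 member enter the counts and medians only and are not reported here.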

Additional observations from a re-analysis of the deposited data

How the results depend on the processing

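No member passed the threshold in any setting tried, an adjusted p under 0.1 included, and 0 of 84 regions did when the 31 regions that hold the start of another chain gene were added, an alternative chosen after seeing the data. The members' median log2 fold change stayed below 0 throughout, from -0.25 (without P0 replicate 3) to -0.03 (without P0 replicate 2). The median of all promoter regions moved with it, to -0.21 and -0.03 in these settings, against -0.10 with all libraries. Without E14.5 replicate 3 both medians were -0.08. The number of all regions past the threshold (2059) was 885 with TMM factors from promoter regions (357 higher and 528 lower at P0, against 778 and 1281), 3490 at an adjusted p under 0.1, and from 339 to 2987 when a library was left out; fewer libraries leave fewer degrees of freedom, and the cause of the other shifts was not tested.

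With the replicate number as a block, 1834 regions, 0 members and 4 members at an unadjusted p under 0.05 passed. The numbers do not pair the samples: same-numbered libraries correlated in their deviations at 0.07, -0.14 and 0.08, and not every library correlated best with its own number.

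For the 34 genes chosen by role or rule, 426 of 475 values kept their direction and 49 turned, none past the threshold; the setting with no filter is not counted, since the filter removed 0 regions. In 18 of the 19 genes that turned in no setting, leaving out 1 library moved the value over 1.5 times, as for Cox8a (-0.02 to -0.55, against -0.25), Ndufa11 (-0.02 to -0.41, against -0.20), Ndufa4l2 (-0.03 to -0.45, against -0.22), Ndufv1 (-0.20 to -0.68, against -0.40), Atp5g1 (-0.10 to -0.52, against -0.30) and Sdhb (-0.01 to -0.28, against -0.16). P0 replicate 2 was the library whose loss gave the value nearest 0 in 8 of the 18, and P0 replicate 3 the one whose loss gave the farthest in 11. Total-count scaling turned Ndufa9 (0.05), Ndufb5 (0.05), Uqcrc2 (0.01), Cox5b (0.02) and Cox7a2l (0.06). Promoter TMM factors turned Ndufa9 (0.13), Ndufb5 (0.08), Uqcrc2 (0.03), Cox5b (0.05) and Cox7a2l (0.12). Cyclic loess offsets turned Ndufb5 (0.09), Ndufs7 (-0.04), Uqcrc2 (0.02) and Cox7a2l (0.04). Fitting with limma-voom turned Ndufv2 (-0.02) and Cox5b (0.00), the block Ndufv2 (-0.01) and autosomes alone Cox7a2l (0.00). Leaving out a library turned 15 genes, with ranges of -0.30 to 0.23 (Ndufa9), -0.18 to 0.17 (Ndufb5), -0.07 to 0.12 (Ndufs7), -0.23 to 0.20 (Ndufv2), -0.29 to 0.02 (Uqcrc1), -0.31 to 0.17 (Uqcrc2), -0.06 to 0.25 (Uqcrfs1), -0.23 to 0.16 (Cox5b), -0.14 to 0.23 (Cox6b2), -0.08 to 0.19 (Cox7a2), -0.10 to 0.08 (Cox7a2l), -0.10 to 0.22 (Atp5a1), -0.43 to 0.22 (Atp5b), -0.33 to 0.03 (Atp5d) and -0.29 to 0.07 (Atp5s). The cause was not tested, and in each of the 15 genes the value with all 6 libraries was smaller than its standard error.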
